A study of Mus musculus with 4 samples.

Results

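The AP-1 transcription factor family was followed in brain septal tissue by the 6 genes that encode its Fos proteins (Fos, Fosb and Fosl2) and Jun proteins (Jun, Junb and Jund). These genes were taken by symbol, and all 6 were found, each on 1 row, among 15409 gene rows of the deposited values. The study compared mice lacking the T cell receptor beta chain (TCRb-/-) with wild-type mice (WT), 2 libraries each. Every mouse of both genotypes had been restrained for 30 min on 3 days and was killed 1.5 h after the last session, so there was no unrestrained group and an induction by stress was not measured. Each library held septal tissue pooled from 4 to 5 mice, and the labels place 1 library of each genotype in experiment 1 and 1 in experiment 2. Strain background, age and sex were not given in the sources used here. The tissue was homogenised and spun so that nuclei and debris were left behind, and RNA came from the cleared, detergent-treated lysate. In bulk tissue, fewer cells of a type and less RNA per cell cannot be told apart.

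AP-1 is a dimer of basic leucine zipper proteins. Jun proteins pair with each other or with Fos proteins, whereas Fos proteins need a Jun partner to bind DNA. Fos, Fosb and Junb are classical immediate early genes, transcribed within minutes of synaptic activity and used in the brain as marks of recently active neurons, while Jund is expressed more steadily. In these bulk libraries the genes were read from all cells of the tissue together.

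The promoters of Fos, Fosb, Jun and Junb are shown because these are the members through which activity is known to act on the family, and because Fos and Junb differed in opposite directions below. Each is the 250 bases before the RefSeq gene start in GRCm38.p6, read on the strand of the gene, and all 6 members had an entry in the table. Fos lies at chr12:85473640-85473889 on the plus strand, Fosb at chr7:19310046-19310295 on the minus strand, Jun at chr4:95052223-95052472 on the minus strand, and Junb at chr8:84978749-84978998 on the minus strand. Capitals mark the core of the cyclic AMP response element (TGACG), the AP-1-like octamer TGACATCA and the TATA box (TATAAA), each searched on both strands.
Fos: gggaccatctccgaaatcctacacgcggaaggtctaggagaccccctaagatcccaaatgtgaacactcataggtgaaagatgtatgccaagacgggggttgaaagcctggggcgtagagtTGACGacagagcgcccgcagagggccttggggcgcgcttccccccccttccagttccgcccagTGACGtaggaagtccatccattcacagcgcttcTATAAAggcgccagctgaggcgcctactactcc
Fosb: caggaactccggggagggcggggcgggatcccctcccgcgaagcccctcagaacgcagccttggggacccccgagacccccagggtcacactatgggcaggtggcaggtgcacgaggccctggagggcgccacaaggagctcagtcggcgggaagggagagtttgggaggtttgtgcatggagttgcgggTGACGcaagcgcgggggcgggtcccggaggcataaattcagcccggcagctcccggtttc
Jun: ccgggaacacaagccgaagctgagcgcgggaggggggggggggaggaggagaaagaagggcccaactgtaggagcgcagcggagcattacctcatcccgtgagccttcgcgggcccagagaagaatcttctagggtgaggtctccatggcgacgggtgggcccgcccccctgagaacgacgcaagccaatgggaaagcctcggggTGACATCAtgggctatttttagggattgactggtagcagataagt
Junb: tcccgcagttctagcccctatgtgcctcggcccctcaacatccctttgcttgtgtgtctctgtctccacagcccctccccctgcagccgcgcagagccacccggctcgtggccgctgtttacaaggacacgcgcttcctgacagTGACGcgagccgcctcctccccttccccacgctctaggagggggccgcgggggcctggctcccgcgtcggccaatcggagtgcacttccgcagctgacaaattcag

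The Fos promoter held the response element core at 2 positions, starting 129 and 66 bases before the gene start, and a TATA box 33 bases before it. Fosb and Junb held the core at 1 position each, 60 and 106 bases before the start. Jun held the octamer 45 bases before the start. Among 32851 mouse promoters of the same length, 17.8% held the core, 2.93% the octamer and 12.4% the TATA box. The full response element (TGACGTCA, which contains the core; in 1.55% of promoters), the AP-1 site (TGACTCA; 4.46%) and the CArG box that serum response factor binds (1.47%) were in none of the 6 windows. A match or its absence describes these letters in this window and not a bound site. The same windows of Jund and Fosl2 held none of the marked motifs. RefSeq places the start of Jund at 70697739 on chromosome 8, and GENCODE M21 at 70698949, so that window depends on the annotation.

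Library totals were between 19988137 and 26210790 reads, and values are given as CPM, the usual counts scaled to each library's total. Trbc2, a constant segment of the deleted receptor chain, had 0 reads in both TCRb-/- libraries and 169 and 86 reads in the WT libraries (6.45 and 3.85 CPM). Of 12 marker genes of septal neurons 11 were listed, with Zic4 the most abundant and a summed level between 192 and 244 CPM. No level was set that these had to reach, and the striatal and choroid plexus sums given below were higher. Of 11 T cell genes, 4 were listed, Trbc2 among them and Cd3e, Cd3d and Cd3g not, and Cd4 was the most abundant. Cd4 had 85.0 and 6.70 CPM in TCRb-/- and 68.5 and 37.5 CPM in WT, experiment 1 before experiment 2. It was thus highest in a TCRb-/- library, and lower in experiment 2 as the striatal markers below were. Whether its reads came from T cells was not tested.

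By level per length, the Jun proteins' genes dominated the family. Jund stood at 123 ± 18.7 CPM per kb of annotated exon (SD, n = 4 libraries), Junb at 35.9 ± 6.07, Fos at 18.3 ± 3.41, Jun at 16.5 ± 1.09, Fosl2 at 1.02 ± 0.226 and Fosb at 0.890 ± 0.112. Fos and Jun overlapped across libraries (13.8 to 21.1 against 15.4 to 18.0 CPM per kb), as did Fosl2 and Fosb (0.817 to 1.24 against 0.774 to 1.00), so neither pair was ordered beyond its spread. Jund was above Junb, and Junb above Fos and Jun, in every library. With the longer RefSeq span of Jund (2878 in place of 1668 bases) and the shorter one of Junb (1840 in place of 2301), the levels were 71.1 ± 10.8 and 44.9 ± 7.60 CPM per kb, and the order was the same. Among the genes tested that had a length, Jund stood at the 97.0th percentile per kb and Fosb at the 15.0th.

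Reads of the 6 genes together made up 372 and 387 CPM in the TCRb-/- and WT libraries of experiment 1, and 418 and 417 CPM in those of experiment 2. Jund alone took 49.2% and 44.8% of these reads in experiment 1 and 57.2% and 53.4% in experiment 2. Junb took 24.1% and 24.9% in experiment 1, and 15.4% and 19.2% in experiment 2. The 3 Fos genes took between 13.5% and 15.4% of the family's reads in every library, although Fos itself took a larger share in experiment 2 (11.9% and 11.7%) than in experiment 1 (8.72% and 10.7%). Within the Fos group, reads of Fos outnumbered those of Fosb 5.18 and 6.90 times in experiment 1 and 9.75 and 10.1 times in experiment 2. These shares are of reads and are not corrected for length.

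**Figure D1:**
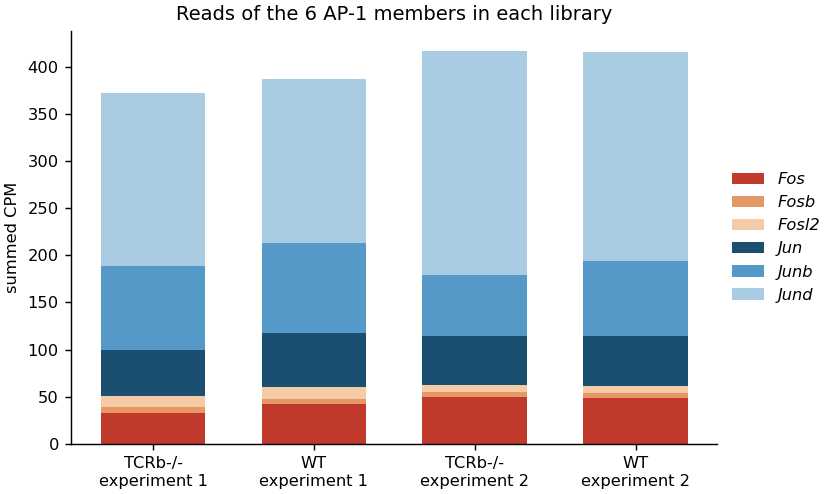
Summed CPM (vertical axis) of the 6 AP-1 members in each of the 4 libraries (horizontal axis), with 1 colour per gene and 1 bar per library. The bars reach 372, 387, 418 and 417 CPM, and the Jund segment is the tallest in each.

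The first comparison asked whether any AP-1 gene differed between TCRb-/- and WT septum after restraint. None of the 6 passed the threshold in limma, an adjusted p of 0.05, against 0 of 13912 genes tested (0% of the background). Trbc2, from the deleted chain, did not pass either (log2 difference -2.59, unadjusted p 0.00016 in limma). The absence of a call in this fit therefore does not show that a gene was unchanged. At an unadjusted p under 0.05 there were 0 members, and 43 genes in all (0.309%). Log2 differences, TCRb-/- minus WT on log2(CPM + 1), ran from -0.21 for Junb to 0.09 for Jund, with adjusted p of 1.00 for each member in limma. The median over the members was -0.08, beside 0.00069 over all genes tested, and ranged from -0.13 (without WT replicate 2) to -0.036 (without TCRb-/- replicate 2) when 1 library was left out. With the experiment added as a block, 0 members and 0.0144% of all genes passed. The 95% limits given with each gene are from the fit without the block, where the difference between experiments counts as spread. In that fit the SEs of the 6 members ran from 0.13 (Jun) to 0.27 (Fosl2). With the block they were smaller, from 0.066 (Jund) to 0.15 (Fosb), so the limits given are wider than those of the paired fit. For 1 gene, exact permutation of 2 against 2 libraries allows no p smaller than 0.333, and all p-values measure only the spread between these pools.

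Fos, whose product is the classical mark of neuronal activity, stood at 32.5 CPM in the TCRb-/- library of experiment 1 and 49.7 CPM in that of experiment 2. The matching WT libraries stood at 41.6 and 48.8 CPM. Values of the other members follow the same order, experiment 1 before experiment 2. The genotypes overlapped, the lowest library being TCRb-/- replicate 1 and the highest TCRb-/- replicate 2. The genotype difference was -0.16 (SE 0.23, 95% limits -0.75 to 0.43). In experiment 1 the TCRb-/- library lay below WT and the counting intervals of the libraries did not meet (exact 95% intervals 30.2 to 34.8 and 39.2 to 44.1 CPM). In experiment 2 the intervals overlapped (46.7 to 52.9 and 46.0 to 51.8 CPM). Fos was not alone in this. For Jun the intervals did not meet in experiment 1 (46.5 to 52.1 in TCRb-/- against 54.6 to 60.5 CPM in WT). In experiment 2 they did not meet for Junb (60.9 to 68.0 against 76.2 to 83.6) and Jund (232 to 246 against 217 to 229). Each interval covers counting error only, and reads amplified without molecular identifiers are not independent molecules.

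Fosb, which also encodes the stable ΔFosB splice form that builds up with repeated stimulation, was low. It had 6.26 and 5.10 CPM in TCRb-/- and 6.03 and 4.83 CPM in WT, from 154, 102, 158 and 108 reads. The genotypes overlapped, and TCRb-/- was the higher library in both experiments by less than the counting intervals. The difference was 0.06 (SE 0.21, limits -0.47 to 0.58). A gene-level value does not separate the splice forms.

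Fosl2, which encodes the Fos relative Fra-2, had 11.5 and 7.90 CPM in TCRb-/- and 12.0 and 8.05 CPM in WT. These values separate by experiment and not by genotype, and the genotype difference was -0.04 (SE 0.27, limits -0.73 to 0.64). Fosl1, the remaining gene of the Fos group and not among the 6, was listed at 3.54 and 2.35 CPM in TCRb-/- and 2.06 and 2.91 CPM in WT. Its genotypes overlapped too, with a difference of 0.17 (SE 0.26, adjusted p 1.00 in limma).

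Jun, which encodes the partner protein c-Jun and is a target of the JNK kinases at the protein level, had 49.3 and 51.6 CPM in TCRb-/- against 57.5 and 52.6 CPM in WT. It was the 1 member of 6 whose genotypes did not overlap, where 17.8% of all genes tested had that property. The difference was -0.12 (SE 0.13, limits -0.45 to 0.21). The antisense gene Junos overlaps Jun and had only 17 to 20 reads per library, and without a stated strand setting the reads of the pair cannot be told apart.

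Junb, an immediate early gene whose product can restrain c-Jun, had 89.6 and 64.4 CPM in TCRb-/- against 96.6 and 79.8 CPM in WT. TCRb-/- was lower than WT in both experiments, and the genotypes overlapped because both values were lower in experiment 2. The difference was -0.21 (SE 0.20, limits -0.72 to 0.31). Junb was the 1 member with an unadjusted p under 0.05 when the experiment was added as a block (unadjusted p 0.0345, adjusted p 0.848 in limma), a level reached by 5.64% of all genes in that fit. A second annotated Junb transcript overlaps Prdx2 on the opposite strand, and Prdx2 had between 9397 and 10699 reads.

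Jund, whose product is the broadly expressed Jun protein, was the most abundant member at 183 and 239 CPM in TCRb-/- against 174 and 223 CPM in WT. TCRb-/- was the higher library in both experiments, and the genotypes overlapped across them. The difference was 0.09 (SE 0.20, limits -0.40 to 0.58). In 5 of the 6 members the genotype difference had the same direction in both experiments, a share that was 51.6% over all genes tested, and the exception was Fos.

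**Figure D2:**
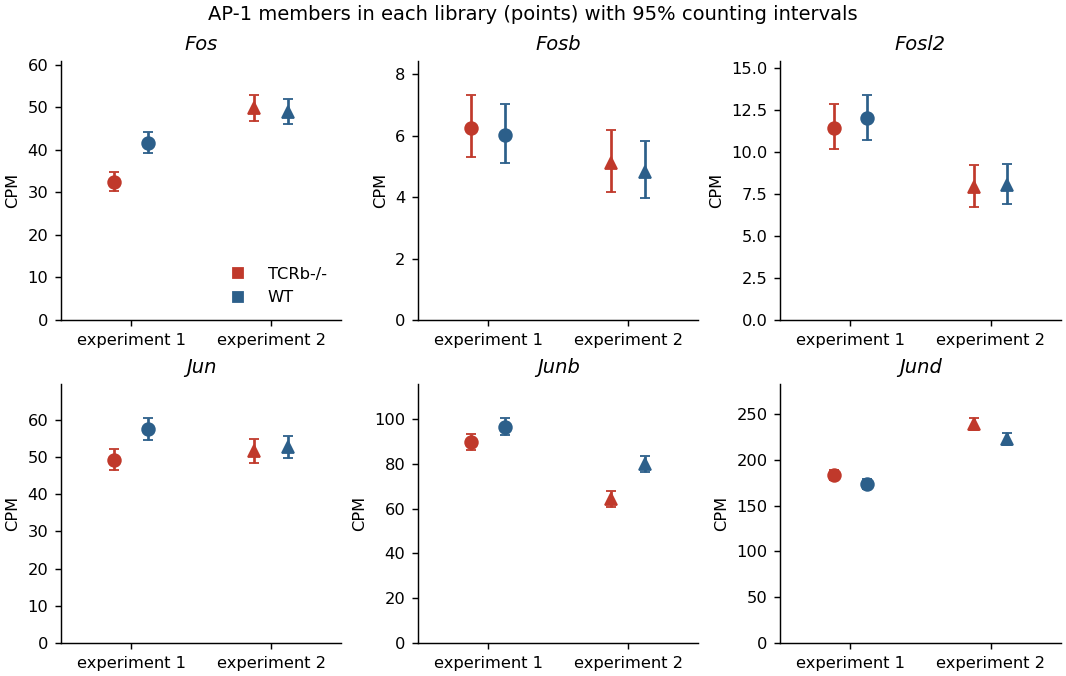
CPM (vertical axes, from 0) of each AP-1 member in the 4 libraries, by experiment (horizontal axes) and genotype (colour), with exact 95% counting intervals as bars. Fos and Jund are higher, and Fosl2, Fosb and Junb lower, in both libraries of experiment 2 (for Fos, 48.8 and 49.7 against 32.5 and 41.6 CPM).

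The second comparison set experiment 2 against experiment 1, with both genotypes on each side, and gave the background for the first. Here the family moved in opposite directions: Fos and Jund were higher and Fosl2 and Junb lower in experiment 2, and these 4 of 6 members passed the threshold in limma. Over all genes, 23.7% passed (39.2% at an unadjusted p under 0.05), 8.95% higher and 14.7% lower in experiment 2. The median absolute log2 difference was 0.37 over the members and 0.20 over all genes tested. In 5 of 6 members the experiments did not overlap, a property of 67.3% of all genes. The direction was the same in both genotypes for 5 of 6 members, Jun being the exception, and for 77.3% of all genes. With genotype as a block the same 4 members passed, as did 24.7% of all genes. What differed between the experiments beyond their number is not given in the sources used here.

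Fos rose from a mean of 37.0 ± 6.45 CPM in experiment 1 to 49.3 ± 0.629 in experiment 2 (SD, n = 2 each), a 1.33-fold difference and 0.41 on the log2 scale (SE 0.12, adjusted p 0.0399 in limma). The change was 0.60 in TCRb-/- and 0.23 in WT. Jund rose from 178 ± 6.85 to 231 ± 11.5 CPM, 1.29-fold and 0.37 on the log2 scale (SE 0.07, adjusted p 0.0110). Its change was nearly the same size in TCRb-/- (0.38) and WT (0.36). These values rest on 798 to 1092 reads of Fos and 4507 to 4978 reads of Jund per library.

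Junb fell from 93.1 ± 4.95 to 72.1 ± 10.9 CPM, to 0.774 of its level, with a log2 difference of -0.37 (SE 0.11, adjusted p 0.0395 in limma). Fosl2 fell from 11.7 ± 0.387 to 7.98 ± 0.103 CPM, to 0.679 of its level, with a log2 difference of -0.51 (SE 0.13, adjusted p 0.0275). Fosb had 6.15 ± 0.167 and 4.97 ± 0.193 CPM, a difference of -0.26 that did not pass (SE 0.15, adjusted p 0.226). Jun stayed close to level, at 53.4 ± 5.83 and 52.1 ± 0.719 CPM (difference -0.03, SE 0.09, limits -0.24 to 0.18, adjusted p 0.833). Without 1 library the difference of Fos ranged from 0.24 (without TCRb-/- replicate 1) to 0.59, and that of Junb from -0.22 (without TCRb-/- replicate 2) to -0.52. The number of calls depended on single libraries: without TCRb-/- replicate 1 or without TCRb-/- replicate 2 only Jund passed, and without WT replicate 1 only Fos and Jund. With the moderation fitted without a mean-variance trend, Fosl2 alone passed, and with the experiment comparison blocked by genotype in that fit none did.

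The opposite movements changed the balance within the family. There were 0.362 and 0.430 Fos reads for each Junb read in the TCRb-/- and WT libraries of experiment 1, and 0.772 and 0.612 in experiment 2. Junb reads per Jund read went from 0.489 and 0.557 to 0.270 and 0.359. Fos reads per Jun read went from 0.659 and 0.723 to 0.964 and 0.929. For each of these 3 ratios the experiments did not overlap, whereas the genotypes did. Fos reads per Jund read, at 0.177 and 0.240 in experiment 1 and 0.208 and 0.219 in experiment 2, overlapped between experiments. These ratios were chosen with the differences of the members known and are a description. A ratio within a library is not affected by the scaling to its total.

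**Figure D3:**
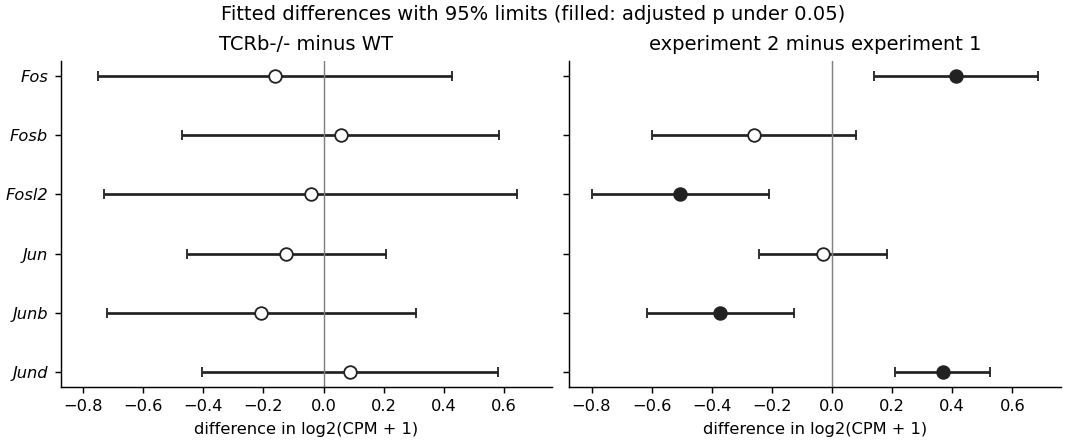
Fitted differences in log2(CPM + 1) (horizontal axes) of the 6 members (vertical axis) by genotype (left) and between experiments (right), with 95% limits as bars and filled points for an adjusted p under 0.05. No point is filled on the left, and Fos (0.41), Jund (0.37), Junb (-0.37) and Fosl2 (-0.51) are filled on the right.

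Exonic length moved with the difference between experiments. Genes with a length were put in 5 groups of nearly equal size. In the shortest group (57 to 2497 bases) the median difference was 0.16, and 20.8% of genes were called higher in experiment 2 against 3.06% lower. In the longest group (7711 to 123179 bases) it was -0.19, with 2.14% called higher and 28.3% lower. Fos (2352 bases) and Jund (1668) are in the shortest group, and Fosl2 (9680) is in the longest. With its RefSeq span of 2878 bases Jund would be in the next group (2498 to 3768 bases). Junb (2301) is also in the shortest group, where its fall put it at the 5.35th percentile. Fos and Jund were at the 86.9th and 81.8th percentiles of that group, and Fosl2 at the 15.7th of the longest. With the trend on length removed, an alternative added after seeing the data, Junb was at -0.45 (adjusted p 0.0302 in limma) and Jund at 0.24 (0.0414), while Fos (0.34, 0.0932) and Fosl2 (-0.31, 0.128) no longer passed. In that fit 17% of all genes passed. With the genotype as a block as well, Fos passed (adjusted p 0.0395) and Fosl2 did not (0.133).

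**Figure D4:**
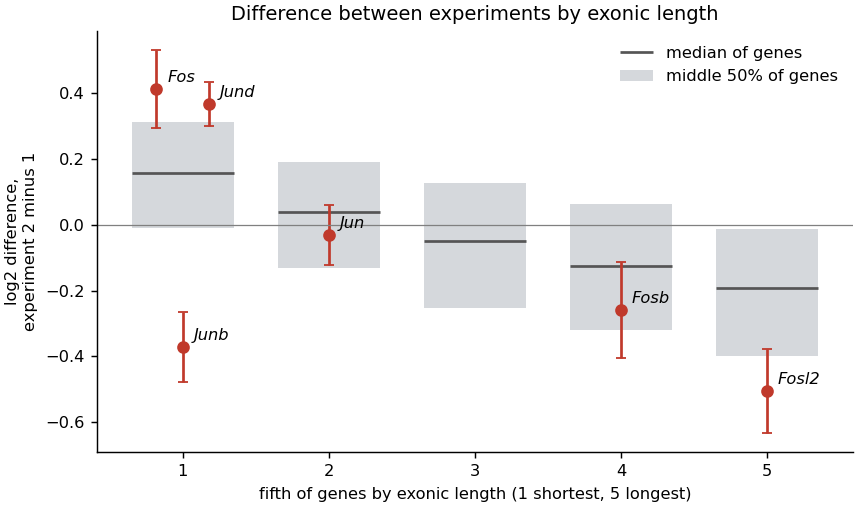
Log2 difference between experiments (vertical axis) by length group, shortest to longest (horizontal axis), with grey bars for the middle 50% of genes, dark lines for their median and red points with SE bars for the AP-1 members. The median falls from 0.16 to -0.19 across the 5 groups. Junb and Fosl2 lie below the bars of their groups, while Fos and Jund lie above theirs.

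Markers of neighbouring tissue differed between the experiments as well, beside the 23.7% of all genes that passed. All 12 striatal markers passed and were lower in experiment 2, with a summed level of 4989 and 4405 CPM in TCRb-/- and WT of experiment 1 and 979 and 2330 CPM in experiment 2. Of 13 choroid plexus markers, 12 passed, all higher, the sum going from 2156 and 1319 to 6922 and 4210 CPM, with Ttr the most abundant. Of 10 cortical and hippocampal markers 7 passed, all lower (712 and 754 to 352 and 438 CPM), and of 8 thalamic markers 5 passed, all higher (380 and 377 to 789 and 504 CPM). The 10 general neuronal markers had 3 calls in each direction and a sum between 7068 and 7793 CPM. Of the 11 septal markers, 2 were called higher and 1 lower in experiment 2. Of the glial and vascular lists, astrocytes had 1 call of 9, oligodendrocytes 1 of 9, microglia 1 of 10 and endothelial cells 0 of 6. None of these listed markers was at 0 reads in any library. By genotype none of these lists had a call. Of the septal markers 7 were higher and 2 lower in TCRb-/- in both experiments (median 0.20). All 13 choroid plexus markers were higher in TCRb-/- in both experiments (median 0.55), and Ttr passed with the experiment as a block (0.85, adjusted p 0.0323 in limma), the other gene called in that fit being Trbc2. The striatal median was 0.18 in experiment 1 and -1.30 in experiment 2, and the thalamic one -0.17 and 0.76. The part of tissue makeup in the AP-1 differences, and in those of every gene list below, was not tested.

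Of 29 other activity-induced genes tested, 10 fell and 0 rose in experiment 2, with a median of -0.26. That is a share of 34.5%, beside 23.7% of all genes called and 14.7% called lower. With the trend on length removed 8 of the 28 with a length passed, beside 17% of all genes in that fit. In both genotypes 20 were lower and 5 higher in experiment 2. With genotype as a block 13 passed, beside 24.7% of all genes. Among them Gadd45g, named after its values were seen, was the 1 higher (0.37, adjusted p 0.0230 in limma). Egr3, an early growth response factor, fell from 17.0 and 14.5 CPM in TCRb-/- and WT to 6.25 and 7.38 CPM (-1.10, SE 0.15, adjusted p 0.00549 in limma). Homer1, which encodes a postsynaptic scaffold, fell from 104 and 122 to 43.6 and 66.5 CPM (-1.06). Plk2, a polo-like kinase, fell from 278 and 285 to 103 and 174 CPM (-1.06), and Ier5 from 46.7 and 44.1 to 31.9 and 32.4 CPM (-0.48). Fos was at 0.41 in the same comparison, and whether it differed from these genes was not tested. By genotype 0 of 29 passed, with a median of -0.025. Those with the smallest unadjusted p were Nptx2 (0.37, p 0.105) and Nr4a1 (-0.45, p 0.158), neither past the threshold. Adding the experiment block also gave 0 calls, with Homer1 (-0.41, unadjusted p 0.00313, adjusted p 0.777 in limma) and Nr4a1 (0.00688, 0.848) first. An unadjusted p under 0.05 there was reached by 5.64% of all genes. Here Homer1, Nr4a1, Egr2, Plk2 and Egr1 reached it with lower values in TCRb-/-, and Gadd45g and Nptx2 with higher ones. Across both experiments 11 of the list were lower and 5 higher in TCRb-/-.

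A list of 17 transcription factors and coactivators was drawn up for the Fos promoter, the Mef2 genes among them. Binding there was not measured. Of these, 9 fell and 0 rose in experiment 2 (median -0.42). That is a share of 52.9%, beside 23.7% of all genes called and 14.7% called lower. Elk1, which joins serum response factor at the serum response element, fell from 55.2 and 57.0 to 31.1 and 35.6 CPM (-0.74, SE 0.09, adjusted p 0.00505 in limma). Mef2c fell from 123 and 167 to 56.2 and 73.5 CPM (-1.15), Mef2d from 128 and 134 to 88.4 and 97.7 CPM (-0.49), and Mkl2, a coactivator of serum response factor, from 76.5 and 81.2 to 44.3 and 55.4 CPM (-0.66). With the trend on length removed 5 of the 15 with a length passed, beside 17% of all genes, and the median was -0.14. By genotype 0 passed, with a median of -0.12. Atf1 (5.08 and 6.05 CPM in TCRb-/- against 6.83 and 7.33 in WT, unadjusted p 0.164) and Elk3 (unadjusted p 0.215) came first. That order is from the fit without the block. Adding the experiment block put Mef2c first (-0.41, unadjusted p 0.00049, adjusted p 0.362 in limma), and 0 genes of the list passed. Mef2c was at -0.43 in experiment 1 and -0.38 in experiment 2 by genotype. Of the 17 genes, 12 were lower in TCRb-/- in both experiments and 1 was higher.

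Among kinases upstream of AP-1, 10 of 19 fell and 0 rose in experiment 2 (median -0.26). That is a share of 52.6%, beside 23.7% of all genes called and 14.7% called lower. Camk4, a calcium-dependent kinase that phosphorylates CREB, fell from 118 and 120 to 41.8 and 76.7 CPM (-1.06, SE 0.23, adjusted p 0.0171 in limma). Mapk14, which encodes p38 alpha, fell from 115 and 118 to 90.4 and 92.2 CPM (-0.35). Rps6ka5, which encodes the kinase MSK1, fell by 0.63 on the log2 scale, and Rps6ka2 by 0.38. With the trend on length removed 3 of 19 passed, beside 17% of all genes in that fit, and the median was -0.12. By genotype 0 of 19 passed, with Gsk3b (-0.23, unadjusted p 0.177) and Rps6ka3 (-0.30, unadjusted p 0.295) first.

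Genes that switch AP-1 off include dual-specificity phosphatases, which inactivate the kinases, proteins that destabilise AU-rich messages such as that of Fos, and ubiquitin ligases that mark c-Jun for destruction. Of 14 tested, 3 fell and 0 rose in experiment 2 (median -0.12), a share of 21.4% beside 23.7% of all genes: Itch (-0.53) and Fbxw7 (-0.39), both ubiquitin ligases, and Dusp6 (-0.37), a phosphatase for ERK. With the trend on length removed, Itch (adjusted p 0.0642 in limma) and Fbxw7 (0.0579) did not pass. Dusp6 went from 48.4 and 52.7 to 38.2 and 39.8 CPM (SE 0.08, adjusted p 0.0203 in limma). By genotype 0 of 14 passed. Zfp36, which encodes the message-destabilising protein tristetraprolin, had 8.30 and 6.35 CPM in TCRb-/- against 5.72 and 4.65 CPM in WT (0.42, unadjusted p 0.104). Its relative Zfp36l1 had 7.69 and 9.96 against 5.95 and 7.33 CPM (0.36, unadjusted p 0.150). TCRb-/- was higher in both experiments for both genes, with unadjusted p of 0.0226 and 0.0353 and adjusted p of 0.848 with the experiment as a block.

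Of 17 reported AP-1 target genes tested, 5 fell and 1 rose in experiment 2 (median -0.10), a share of 35.3% beside 23.7% of all genes. Gria2, an AMPA receptor subunit, fell from 568 and 525 to 381 and 394 CPM (-0.49, SE 0.07, adjusted p 0.00582 in limma). Vip, a neuropeptide gene, fell from 7.52 and 9.54 to 3.20 and 3.62 CPM (-1.10), and Camk2a from 304 and 241 to 163 and 175 CPM (-0.68). Nts, which encodes neurotensin, was the gene that rose, from 61.3 and 56.7 to 70.3 and 76.5 CPM (0.31, adjusted p 0.0302). With the trend on length removed, 4 of the list passed, beside 17% of all genes in that fit. Neither Nts (adjusted p 0.256 in limma) nor Gria2 (0.0556) was among them. By genotype 0 of 17 passed (median 0.015). Spp1 (0.27, unadjusted p 0.320) and Penk (-0.58, unadjusted p 0.388) came first. Several of these genes are also expressed by striatal or cortical neurons, whose markers moved with the experiments as given above.

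The other bZIP genes that can pair with Fos or Jun proteins were taken as a further list. Of 12 tested, 0 rose in experiment 2, and the list median was -0.07. By genotype 0 of 12 passed, with Maff (0.22, unadjusted p 0.334) and Atf7 (-0.18, unadjusted p 0.417) first.

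**Figure D5:**
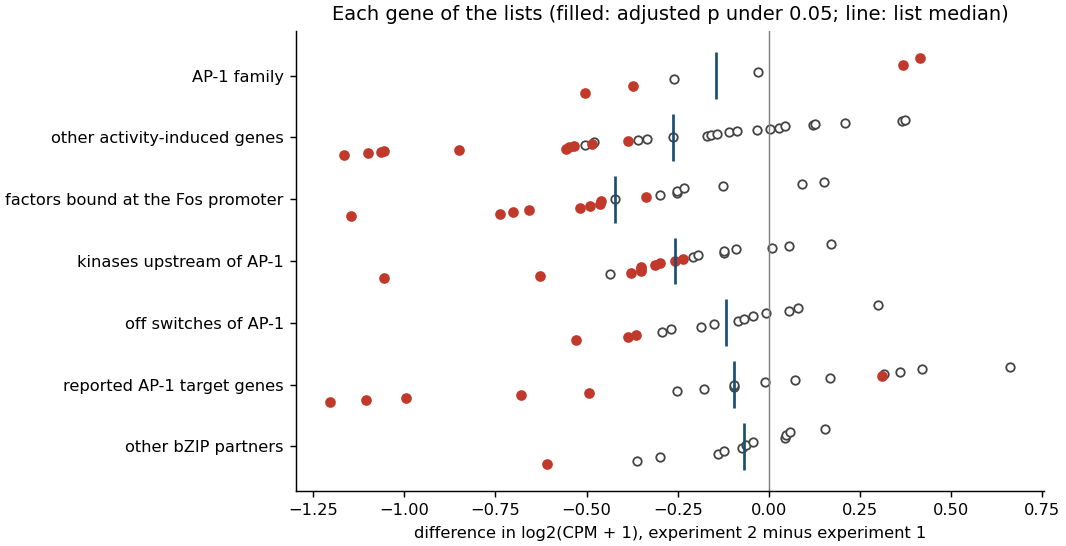
Difference in log2(CPM + 1) between experiments (horizontal axis) for each tested gene of the 7 lists (vertical axis), filled for an adjusted p under 0.05, with the list median as a line. The AP-1 family has filled points on both sides of 0, and the 10 filled points of the other activity-induced genes all lie below 0.

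Profiles over the 4 libraries were compared by the root-mean-square distance of log2(CPM + 1) after centring each gene, among 9817 genes outside the family with a mean of at least 10 CPM. The genes nearest to Fos were Vcp (0.0081), Acyp2 (0.017), Magee2 (0.017), Impact (0.021) and Gm5148 (0.025), and 246 genes (2.51%) lay within 0.1 of it. Nearest to Fosb was Axin1, to Fosl2 Ctnnd2, to Jun Cep170, to Junb Exoc6 and to Jund Romo1, at distances between 0.0025 and 0.015. Within the family, Fosl2 and Junb were the closest pair (0.12) and Fos and Fosl2 the farthest (0.47). Profiles of 4 points are a description and carry no test.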

How the data were processed

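RNA sequencing of septal tissue gave 4 libraries, 2 per genotype, with cDNA amplified by a SMARTer Ultralow kit, per the labels' protocols. The submitters' processing notes name HISAT2 2.1.0, SAMtools 1.3, HTSeq 0.9.1, R 4.0.5, limma 3.46.0 and the mm10 build, with no role or order. The deposited values are log2 CPM, and solving for the library total gave whole read counts for 100% of them within 0.001 reads, with 0.5 added to each count and 1 to the total. Of 15426 rows 17 were ERCC spike-ins and were left out. The lowest maximum of any row was 10 reads, so lower genes were not analysed here.

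The scale was log2(CPM + 1), on which changes of low genes come out too small. The 13912 genes averaging 1 CPM or more were tested with limma 3.58.1 in R 4.3.3, with a mean-variance trend, two-sided, Benjamini-Hochberg adjusted over all genes tested, at a threshold of 0.05. Genotype, or experiment, was the only term. Fits were run on simulated counts to check that changes put in were recovered. The genotype simulation held no difference between experiments, so it does not show how the fits behave with the spread found here. Labels give experiments 1 and 2 as the replicate numbers, which therefore pair the samples, and the change between experiments correlated at 0.72 between genotypes across genes. Replicates differed beyond counting noise (chi-square per degree of freedom 52.2 and 30.3). Pools are separate samples per the labels, but whether any mice were littermates was not stated. Exonic lengths are from GENCODE M21 (GRCm38), the union of a gene's exons. Promoters are from RefSeq. Intervals of single counts are exact Clopper-Pearson intervals at 95%. Other steps used scipy 1.17.1 and matplotlib 3.10.9 under Python 3.11.15.

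The 6 members and the gene lists were chosen with earlier results of these data known. Named genes are the members, the genes of each list past the threshold (at most 4 by smallest p, or the 2 of smallest unadjusted p where none passed), the nearest profiles, Trbc2 and the most abundant marker. Fosl1, the overlapping Junos and Prdx2, and single markers outside this rule were added for context. Activity-induced genes and promoter factors named from the genotype fit that includes the block were chosen after their values were seen. A result on 1 gene of these lists is not reported here. Alternatives were other pseudocounts, filters and scalings, moderation without a trend, voom weights, the replicate block and leaving out each library. Removal of the length trend and the block without a trend were added after seeing the data.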

Additional observations from a re-analysis of the deposited data

Results flagged for a closer look

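Some differences had opposite signs in the groups compared, each from 1 library per group, so the difference between them was not tested. Fos was at -0.35 (TCRb-/- minus WT, log2) in experiment 1 and 0.026 in experiment 2. Jun went from experiment 1 to 2 by 0.065 in TCRb-/- and -0.13 in WT. Fosl1 was at 0.57 and -0.22 by genotype in experiments 1 and 2, and at -0.44 and 0.35 between experiments in TCRb-/- and WT. Penk was at 0.15 in experiment 1 and -1.31 in experiment 2 by genotype. Medians close to 0 also changed sign by genotype, at -0.085 and 0.0010 for the AP-1 family and -0.032 and 0.024 for the off switches in experiments 1 and 2. The median of reported AP-1 targets between experiments was 0.036 in TCRb-/- and -0.14 in WT. Marker medians by genotype in experiments 1 and 2 were 0.18 and -1.30 for striatum, -0.17 and 0.76 for thalamus, and 0.13 and -0.051 for oligodendrocytes. Between experiments, in TCRb-/- and WT, they were -0.14 and 0.051 for oligodendrocytes and 0.11 and -0.28 for the 4 listed T cell genes.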

How the results depend on the processing

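The count of AP-1 genes called by genotype was 0 under every alternative. Over all genes, adding the replicate block gave 2 calls. Combined with voom weights the block gave 2, combined with quantile normalization 2, and combined with removal of the length trend 11. With 1 library left out it ranged from 0 to 38 (38 without TCRb-/- replicate 1, 1 without TCRb-/- replicate 2). The block alone changed no call of an AP-1 gene in either comparison. Between experiments, the number of AP-1 genes called was 4, and it was 1 (Fosl2) with moderation without a trend, 2 (Junb and Jund) with the trend on length removed, 0 with the block and no trend, and from 1 to 4 with 1 library left out. Over all genes it was 629 without a trend, 0 with the block and no trend (4816 at an unadjusted p under 0.05 in limma) and 1379 to 3395 with 1 library left out (1379 without TCRb-/- replicate 1, 1680 without WT replicate 1). Of the calls between experiments 37.8% were higher, and 50.6% under quantile normalization. Junb just missed the threshold with median-of-ratios scaling (-0.34, adjusted p 0.0533) and quantile normalization (-0.33, 0.0560). Jun changed sign near 0, at 0.0009 with median-of-ratios scaling, 0.026 with quantile normalization, and 0.026 when the block joined the latter. The family median between experiments turned to 0.17 with the filter at 10 CPM, which leaves out Fosb and Fosl2. Without 1 library, genotype differences ranged from -0.46 to 0.14 for Fos, -0.078 to 0.19 for Fosb, -0.31 to 0.22 for Fosl2, -0.19 to -0.060 for Jun, -0.44 to 0.029 for Junb and -0.10 to 0.28 for Jund, and the difference of Jun between experiments from -0.14 to 0.079. List medians by genotype ranged from -0.28 to 0.15 for factors at the Fos promoter, -0.18 to 0.053 for kinases, -0.13 to 0.13 for off switches, -0.095 to 0.011 for bZIP partners and -0.24 to 0.10 for activity-induced genes, and that of AP-1 targets between experiments from -0.13 to 0.0099. Leaving out 1 library leaves a genotype with 1 sample, assumed to vary like the others, and unbalances the experiments. The cause of the other changes was not tested. Among the members the fewest reads per library were those of Fosb, 102 to 158.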
